A study of Mus musculus with 38 samples.

Results

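CD4 T cells lacking the miR-17~92 microRNA cluster were compared with wild-type CD4 T cells after 24 h of stimulation, in 4 libraries against 4. These 8 libraries were taken by their labels from a series of 38 mouse polyA RNA libraries covering 5 genotypes. The deleted group (CD4cre.miR-17∼92lox/lox, called T1792del) carries a floxed cluster and a Cre recombinase under the control of Cd4, which acts in developing T cells. The wild-type group carries neither a floxed allele nor Cre, and no group was labelled as Cre alone, so the deletion and Cre cannot be told apart here. Each library came from naive CD4 T cells of the lymph nodes and spleen of 1 mouse of either sex, purified with a commercial kit. No age of the mice is given in the labels. Both groups were kept on plates coated with anti-CD3 (0.5 µg/ml) and anti-CD28 (0.2 µg/ml), antibodies that engage the T cell receptor complex and its main costimulatory receptor. The medium of both held interleukin-2 (IL-2) at 50 U/ml. Naive cells of the same genotypes (4 libraries each) and stimulated T1792tg cells (4 libraries), where this Cre removes a stop before a miR-17~92 transgene at Rosa26, are given beside the comparison where they bear on it.

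MicroRNAs guide Argonaute proteins to messenger RNAs that pair with bases 2 to 8 of the microRNA, the seed, and this lowers the stability and translation of the message. The miR-17~92 cluster is a single transcript cut into hairpins of several seed families and is induced when lymphocytes are activated. It is known for holding down brakes of T cell growth, survival and PI3K and TGF-beta signalling, and for promoting the Th1 programme, in which the transcription factor T-bet drives interferon-gamma.

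The 6 mature microRNAs below (RefSeq, GRCm38.p6) come from the hairpins that are deleted. Capitals mark the seed. MiR-17 and miR-20a share 1 seed, miR-19a and miR-19b another, and miR-18a and miR-92a have 1 each.
mmu-miR-17-5p: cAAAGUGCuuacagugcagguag
mmu-miR-20a-5p: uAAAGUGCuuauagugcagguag
mmu-miR-18a-5p: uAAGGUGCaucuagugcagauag
mmu-miR-19a-3p: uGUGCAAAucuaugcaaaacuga
mmu-miR-19b-3p: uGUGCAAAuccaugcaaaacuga
mmu-miR-92a-3p: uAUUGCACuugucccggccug

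Matches to these seeds in the messages that rose in T1792del cells and are described below are shown next, each within 11 flanking bases per side, 5′ to 3′ on the strand of the gene. Capitals mark the match, which is 7 bases long or 8 where an A follows it.
Rcan3, miR-17 family, chr4:135416222-135416251, minus strand: tattctcaatgGCACTTTAagtgacaaggt
Tgfbr2, miR-17 family, chr9:116090062-116090091, minus strand: caataacgtttGCACTTTAttaatgcctgt
Mylip, miR-92 family, chr13:45411699-45411728, plus strand: gacctcatcggGTGCAATActagctaagtt
Bcl2l11, miR-17 family, chr2:128160441-128160470, plus strand: ccccgactggaGCACTTTActgtctcagcc
Phlpp2, miR-92 family, chr8:109943859-109943888, plus strand: ggagtatacacGTGCAATAatcagtgaact
Zbtb4, miR-17 family, chr11:69781260-69781289, plus strand: tcttgtttctgGCACTTTAgaaaaactgca
Ago1, miR-17 family, chr4:126438519-126438547, minus strand: cattgacatttGCACTTTcagacgtgaca
Cc2d1a, miR-19 family, chr8:84133035-84133064, minus strand: ggagagtcctgTTTGCACAtccaggagcat
All lie in the longest annotated 3′ untranslated region (UTR) of the gene. In Tgfbr2 and Ago1 the miR-17 match overlaps a miR-19 match, so that 1 stretch can pair with both seeds.

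The 8 libraries held 22605246 to 26774736 counts, and levels are given in CPM, the counts of a gene per 1000000 counts. The labels give no sex. By Xist and Y-linked genes, T1792del 1 and 2 and wild-type 4 came from males and the others from females. In a principal component analysis of the 8 libraries the first component, with 32.4% of the variance, put wild-type at 13.8 to 23.9, the female T1792del libraries at -9.03 and -9.62 and the male ones at -27.5 and -31.8. Wild-type 4 was the only male of its group. A test of whether the deletion difference itself differed between the sexes was run but cannot decide this with so few males. T1792del 2 stood apart in genes of glycolysis and hypoxia, as described with them. Purity markers are given at the end.

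The deleted hairpins checked the labels. Mir17 (chr14:115043671-115043754) had 3, 3, 4 and 3 counts in the wild-type libraries and 0 in each T1792del library, at least 4.57-fold lower against 3 counts over the pooled group. Mir20a had 1 to 4 counts per wild-type library and 0 in T1792del, at least 3.16-fold lower. PolyA libraries hold little of such short-lived precursors. The host gene entry Mir17hg was 23, 17.4, 20.5 and 21.9 CPM in wild-type and 162, 189, 167 and 170 CPM in T1792del, a log2 difference of 3.06 ± 0.14 (SE, adjusted p = 4.8e-18). Its RefSeq interval (chr14:115044390-115046728) starts at the end of the Mir19b-1 hairpin and holds only the Mir92-1 hairpin, so it lies downstream of the other 5 hairpins. Whether the deposited counts used this interval is not known, as their annotation is not named. In naive cells Mir17hg did not differ (log2 0.08, adjusted p = 0.8), and the difference between states passed the test (log2 2.98, adjusted p = 1.3e-13). Gt(ROSA)26Sor, a noncoding transcript, lay at 10.6 to 11.2 CPM in T1792del against 0 to 0.12 CPM in wild-type, and did not differ in T1792tg (log2 -0.06). Whether this comes from the deletion or from another genetic difference between the groups was not tested. Gh, growth hormone, lay at 2.79 to 6 CPM in T1792del against 0 to 0.089 CPM and was also higher in T1792tg (log2 6.24, adjusted p = 1.5e-09), which carries Cre too.

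Of 13650 genes tested, 2216 (16.2%) passed in the stimulated comparison, 1060 higher in T1792del (7.77%) and 1156 lower (8.47%), and the median log2 over all genes was 0. Adjusted p is a Benjamini-Hochberg value over all tested genes from edgeR's quasi-likelihood test throughout, and a gene is called higher or lower below 0.05. As each library is 1 mouse and 1 culture, p-values measure the spread of both together. At least a 2-fold difference was reached by 125 genes called higher and 95 called lower. For 3353 genes (24.6%) the 4 T1792del libraries did not overlap the 4 wild-type ones. In naive cells the same genotype contrast called 708 genes (5.19%), 377 higher (2.76%) and 331 lower (2.42%), in libraries where myeloid and red cell markers were higher in T1792del, as given at the end. The deletion difference itself differed between the states for 833 genes (6.1%), 430 upward (3.15%) and 403 downward (2.95%). Stimulated T1792tg against the same wild-type libraries called 1713 genes (12.5%), 833 higher (6.1%) and 880 lower (6.45%). Without T1792del 1 the stimulated count was 1388, and with female libraries alone it was 601 and with male libraries alone 425.

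Among the published targets of the cluster, 11 of 31 were called higher (35.5%, beside 7.77% of all genes) and 2 lower, with a median log2 of 0.2. The list was compiled with results of this series known, so its direction is not independent evidence. Rcan3, which encodes a calcineurin regulator and lies at chr4:135412308-135433871, had 60.8, 59.8, 64.6 and 56 CPM in T1792del and 39.2, 35.2, 36.3 and 40.6 CPM in wild-type (log2 0.67 ± 0.08, adjusted p = 1.3e-07). Every T1792del library lay above every wild-type library. Rcan3 was also higher in naive T1792del cells (log2 0.48, adjusted p = 8.6e-05) and lower in stimulated T1792tg cells (log2 -0.49, adjusted p = 3.7e-05), a contrast that shares the wild-type libraries.

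Tgfbr2, the receptor subunit that binds TGF-beta, had 84.7, 79.3, 88.2 and 84.6 CPM against 50.5, 52.8, 54.8 and 58.5 CPM (log2 0.64 ± 0.08, adjusted p = 5.9e-07). Its difference was larger than in naive cells (log2 0.26 there, difference between states 0.38, adjusted p = 0.035). Bcl2l11, the pro-apoptotic protein Bim, lay between 118 and 122 CPM in the 4 T1792del libraries and between 70.7 and 85.5 CPM in wild-type (log2 0.6 ± 0.1, adjusted p = 3.4e-05). The spread within T1792del was small beside the gap. Phlpp2, a phosphatase that removes an activating phosphate from AKT, had 35.4 to 45.4 CPM against 25.2 to 27.8 CPM (log2 0.66 ± 0.12, adjusted p = 0.00018).

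Mylip, a ubiquitin ligase for lipoprotein receptors, rose from 4.72 to 6.09 CPM in wild-type to 7.77 to 11 CPM (log2 0.87 ± 0.11, adjusted p = 1.3e-06). Zbtb4, a transcriptional repressor with 6 matches over 3 families, rose by 0.79 ± 0.13 (adjusted p = 4.2e-05), and Rbl2, a pocket protein that restrains E2F factors, by 0.51 ± 0.08 (adjusted p = 3.7e-05). E2f1 itself, which drives entry into S phase, had 122 to 129 CPM against 84.3 to 100 CPM (log2 0.38, adjusted p = 0.001). Hbp1, a cell cycle inhibitor, rose by 0.8 ± 0.13 (adjusted p = 6.3e-05), although its longest 3′ UTR holds no match of 7 bases. Not every listed target moved. Cyld, which restrains NF-kB, was at 90.2 to 101 CPM against 90.3 to 92.5 CPM (log2 0.07, adjusted p = 0.47), and Tnfaip3, another NF-kB brake, missed the threshold (log2 0.34, adjusted p = 0.051). The 2 listed targets called lower were Socs1 and Socs3, feedback inhibitors of cytokine signalling, described with the cytokine genes.

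**Figure D1:**
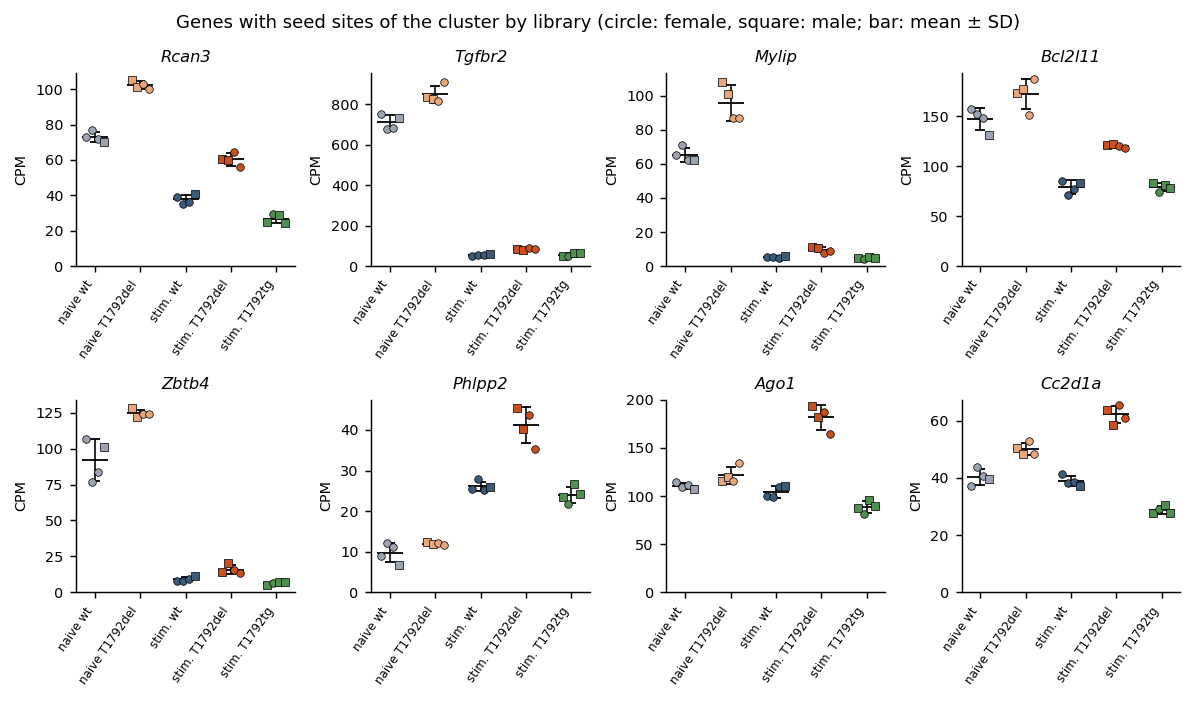
CPM (linear axis from 0) of 8 genes with seed matches in naive and stimulated wild-type and T1792del and stimulated T1792tg libraries, 1 point per library (circles from females, squares from males), with the group mean and SD. In stimulated cells every T1792del point lies above every wild-type point in all 8 panels, for example 56 to 64.6 CPM against 35.2 to 40.6 CPM for Rcan3.

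Ago1 and Cc2d1a, outside that list, were called higher and carry the matches shown above. Ago1, an Argonaute protein of the microRNA pathway itself, had 194, 182, 187 and 164 CPM against 99.6, 98.9, 109 and 110 CPM (log2 0.8 ± 0.08, adjusted p = 1.2e-08). In naive cells Ago1 was not called (log2 0.13, adjusted p = 0.36), and the difference between states passed (0.66, adjusted p = 0.00037). Cc2d1a, a scaffold protein of signalling to NF-kB, had 58.6 to 65.5 CPM against 37.3 to 41.2 CPM (log2 0.68 ± 0.06, adjusted p = 2.6e-09) and fell in T1792tg (log2 -0.43, adjusted p = 9.6e-06). It was chosen after its values were seen. Of 15 genes of the microRNA machinery 3 were called higher (20%, beside 7.77% of all genes) and none lower, and a single one was called when T1792del 1 was left out. Cnot1, a scaffold of the deadenylase complex, rose by 0.33 but missed the threshold without T1792del 1 (adjusted p = 0.067). Ago3 rose by 0.45 and missed it without any 1 of T1792del 1 or 2 or wild-type 1, 2 or 4 (adjusted p from 0.063 to 0.21).

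Of the genes called higher that hold the most matches, Atxn1 had 10 (log2 0.46 ± 0.11, adjusted p = 0.0033), Map3k2, a kinase of stress signalling, had 7 (log2 0.49 ± 0.11, adjusted p = 0.0033), and Klhl20 (log2 0.45 ± 0.07, adjusted p = 1.2e-05) and Clock, a circadian transcription factor (log2 0.6 ± 0.12, adjusted p = 0.00048), had 6 each. Rora, the nuclear receptor RORalpha, also had 10 and lay at 4.17, 9.41, 4.59 and 5.8 CPM against 2, 2.8, 4.68 and 2.93 CPM (log2 0.95, adjusted p = 0.014). Its groups overlapped, and it missed the threshold without T1792del 2 (log2 0.64, adjusted p = 0.12) and without wild-type 1 (log2 0.79, adjusted p = 0.061).

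Seed matches were counted in all 12666 tested genes with an annotated 3′ UTR of at least 30 bases. Of the 1794 genes with a miR-17 family match 16.8% were called higher and 4.52% lower (median log2 0.085), and of the 933 with a miR-92 match 17.0% and 4.39% (0.085). The 1618 with a miR-19 match gave 15% and 6.0% (0.062) and the 1164 with a miR-18 match 12.1% and 5.93% (0.05). The 8513 genes without a match gave 5.42% and 10.0% (-0.035), beside 8.19% and 8.57% of all genes with a UTR. With matches to 1, 2, 3 and 4 families the medians were 0.041, 0.102, 0.132 and 0.201, the last over 34 genes. With 8-base matches alone the medians were 0.142 for miR-17, 0.128 for miR-92, 0.086 for miR-18 and 0.076 for miR-19. Of the genes called higher 55.5% held a match, of those called lower 21.3% and of all 32.8%.

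Longer UTRs hold more matches, the median length being 783 bases without a match and 2230 with one, and the median of genes without a match also moved with length. In 4 classes of UTR length holding like numbers of genes, from the shortest (30 to 491 bases) to the longest (from 2252 bases), genes without a match had medians of -0.072, -0.041, -0.011 and 0.012, while genes with a miR-17 match had 0.077, 0.093, 0.08 and 0.087. In naive cells the medians over all lengths were -0.012 with a miR-17 match and -0.005 without any match, but they too moved with length. By the same 4 classes they were 0.073, 0.031, -0.005 and -0.035 with a miR-17 match and 0.031, -0.005, -0.031 and -0.052 without any. In each class and in both states the genes with a miR-17 match had the higher median. The log2 change of each library from the wild-type mean gave medians over miR-17 genes of 0.122, 0.089, 0.074 and 0.053 for T1792del 1 to 4 and -0.01 to 0.009 for wild-type. All 4 T1792del libraries lay above the 4 wild-type ones, and the males above the females.

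**Figure D2:**
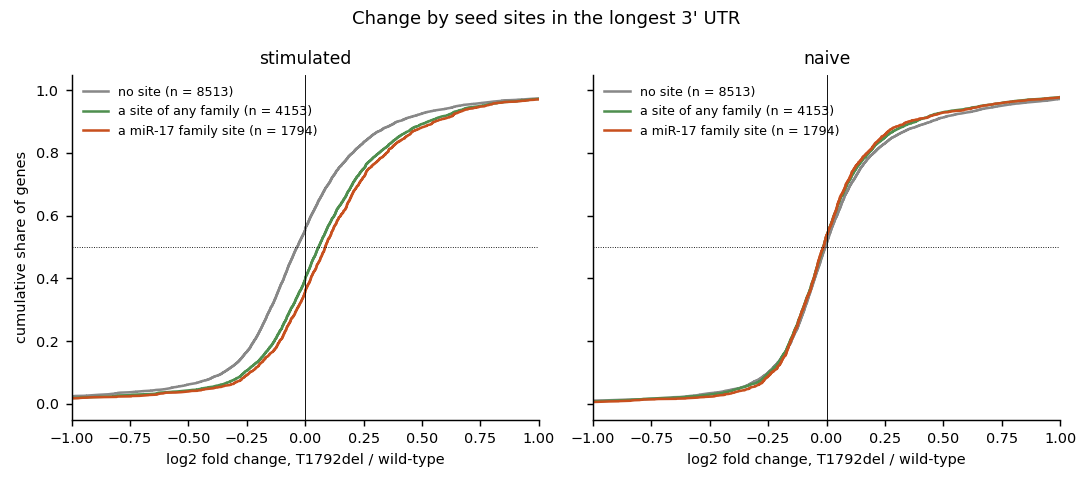
Cumulative share of genes (vertical axis) against the log2 difference between T1792del and wild-type (horizontal axis, cut at -1 and 1), in stimulated (left) and naive cells (right), for genes without a seed match, with any match and with a miR-17 family match. In stimulated cells the curve of miR-17 genes crosses the middle at 0.085 and that of genes without a match at -0.035, and in naive cells the curves, which join all UTR lengths, cross it at -0.012 and -0.005.

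Genes of the Th1 programme and of the response to interferon-gamma were among the largest decreases. Tbx21, which encodes T-bet (chr11:97098007-97115331), had 13.9, 29.3, 33.3 and 23.6 CPM in T1792del and 109, 143, 114 and 101 CPM in wild-type (log2 -2.22 ± 0.23, adjusted p = 1.9e-08). The highest T1792del library lay far below the lowest wild-type one. In bulk libraries fewer expressing cells and less RNA per cell cannot be told apart. In naive cells Tbx21 averaged 3.43 CPM in T1792del and 3.16 CPM in wild-type (log2 0.12, adjusted p = 0.89), and the difference between states passed the test (-2.34, adjusted p = 0.00037). The neighbouring gene on chromosome 11, Tbkbp1, an adaptor of the kinase TBK1, had 5.69 to 12.7 CPM against 34.1 to 47.4 CPM (log2 -2.17 ± 0.2, adjusted p = 2.6e-09).

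Ifng, the cytokine interferon-gamma, had 0.776, 3.66, 2.87 and 2.62 CPM against 8.9, 20.9, 10.6 and 8.02 CPM (log2 -2.28 ± 0.39, adjusted p = 8e-05). All T1792del values lay below all wild-type values. In naive cells Ifng averaged 4.1 CPM in T1792del and 3.68 CPM in wild-type, beside 2.48 CPM in T1792del and 12.1 CPM in wild-type after stimulation. Eomes, a T-box factor related to T-bet, had 1.7 to 3.14 CPM against 5.07 to 9.79 CPM (log2 -1.68 ± 0.22, adjusted p = 1e-06). Il12rb2, the signalling chain of the IL-12 receptor, had 4.28 to 10.3 CPM against 14.7 to 27.2 CPM (log2 -1.57 ± 0.2, adjusted p = 1.3e-06). In stimulated T1792tg cells, against the same wild-type libraries, Ifng (log2 2.43), Eomes (1.72) and Il12rb2 (1.57) were higher, and Tbx21 missed the threshold (0.56, adjusted p = 0.088).

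**Figure D3:**
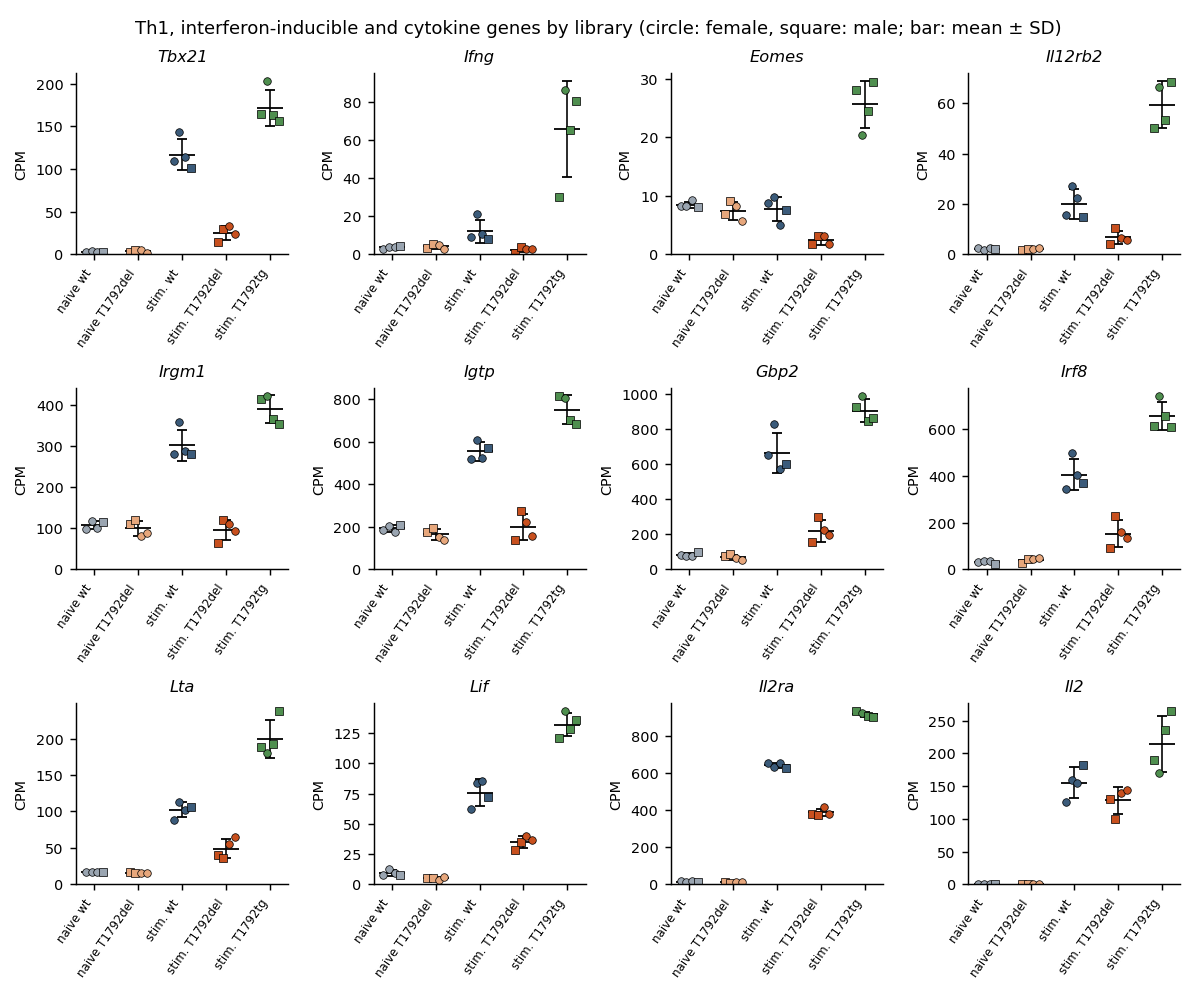
CPM (linear axis from 0) of 12 genes of the Th1 programme, the interferon response and cytokine signalling in naive and stimulated wild-type and T1792del and stimulated T1792tg libraries, 1 point per library (circles from females, squares from males), with the group mean and SD. Stimulated T1792del lies below stimulated wild-type without overlap in every panel except Il2, for example 13.9 to 33.3 CPM against 101 to 143 CPM for Tbx21.

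Part of the genes that interferons induce were called lower. Of 31 interferon-stimulated genes 10 were called lower (32.3%, beside 8.47% of all genes) and none higher, with a median log2 of -0.52, and 10 were called lower whichever library was left out. The cell-autonomous GTPases attack vesicles around intracellular pathogens. All 17 tested members by name were called lower, beside 8.47% of all genes, with a median of -1.21. This set was chosen after their values were seen. Gbp2, Gbp3, Igtp, Irgm1 and Iigp1 are also among the 31 genes above, so the counts are not independent. Irgm1 had 64.6, 120, 110 and 92.6 CPM against 281, 359, 288 and 281 CPM (log2 -1.64 ± 0.16, adjusted p = 4.4e-09). Igtp had 137, 273, 223 and 159 CPM against 517, 610, 522 and 572 CPM (log2 -1.49 ± 0.15, adjusted p = 1.2e-08). Gbp2 had 156, 301, 223 and 197 CPM against 649, 827, 570 and 603 CPM (log2 -1.6 ± 0.16, adjusted p = 8.8e-09).

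In each of these genes T1792del 1 was the lowest library and T1792del 2 the highest of its group, and neither reached the wild-type range. Iigp1 had 23.2 to 47.3 CPM against 189 to 271 CPM, the largest decrease among genes of at least 5 CPM without overlap (log2 -2.76 ± 0.25, adjusted p = 2.6e-09). Tgtp1 fell by 1.62 and Tgtp2, a near-identical neighbour whose reads could be split with it, by 1.54. Irf8, an interferon regulatory factor, had 89.2, 228, 161 and 132 CPM against 344, 499, 405 and 371 CPM (log2 -1.41 ± 0.2, adjusted p = 5.8e-06). Ifngr1, the ligand-binding chain of the interferon-gamma receptor, was at 23.7 to 29.7 CPM against 22 to 25.6 CPM (log2 0.13, adjusted p = 0.42).

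The deletion difference itself was larger after stimulation for Iigp1 (difference between states -2.22, adjusted p = 0.00017), Irgm1 (-1.53, adjusted p = 5.4e-05), Igtp (-1.26), Gbp2 (-1.35) and Irf8 (-1.72). None of these 5 passed in naive cells, where the log2 values lay between -0.54 and 0.32. Ly6a (Sca-1), a surface protein that interferons raise, had 28.4 to 92.8 CPM against 174 to 272 CPM (log2 -1.89 ± 0.24, adjusted p = 6.1e-07), and Ly6c1, a marker of activated and memory T cells, had 1.26 to 3.62 CPM against 8.28 to 13.9 CPM (log2 -2.14 ± 0.25, adjusted p = 1.5e-07). Ube2l6, the conjugating enzyme for the modifier ISG15, went both ways, higher in naive T1792del cells (log2 1.55, adjusted p = 0.0021) and lower in stimulated ones (log2 -1.84, adjusted p = 0.00027).

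Promoters of Igtp, Tgtp1, Irgm1 and Gbp2 are shown because the GTPase genes fell together. They were picked with values in view from the 17 tested, and the share of all 17 with a motif was not counted. Each promoter runs from 250 bases before the start to 50 after it (RefSeq, GRCm38.p6), and capitals mark 2 motifs searched on both strands. The first, TTCNNNGAA, is the core that STAT factors bind. The second, GAAA, any 2 bases and GAAA again, is that of interferon regulatory factors.
Igtp, chr11:58199306-58199605, plus strand: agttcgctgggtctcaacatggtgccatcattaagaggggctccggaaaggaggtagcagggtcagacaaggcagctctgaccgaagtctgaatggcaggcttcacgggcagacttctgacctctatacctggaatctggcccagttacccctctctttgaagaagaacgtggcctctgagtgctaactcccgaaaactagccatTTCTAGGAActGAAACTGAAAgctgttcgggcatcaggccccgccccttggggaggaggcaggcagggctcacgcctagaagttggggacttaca
Tgtp1, chr11:48992197-48992496, minus strand: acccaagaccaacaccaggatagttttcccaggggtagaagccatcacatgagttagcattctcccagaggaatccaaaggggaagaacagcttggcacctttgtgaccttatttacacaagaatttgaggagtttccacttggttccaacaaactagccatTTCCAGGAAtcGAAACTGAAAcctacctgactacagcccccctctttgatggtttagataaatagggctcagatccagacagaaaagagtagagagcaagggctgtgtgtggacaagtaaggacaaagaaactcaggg
Irgm1, chr11:48871371-48871670, minus strand: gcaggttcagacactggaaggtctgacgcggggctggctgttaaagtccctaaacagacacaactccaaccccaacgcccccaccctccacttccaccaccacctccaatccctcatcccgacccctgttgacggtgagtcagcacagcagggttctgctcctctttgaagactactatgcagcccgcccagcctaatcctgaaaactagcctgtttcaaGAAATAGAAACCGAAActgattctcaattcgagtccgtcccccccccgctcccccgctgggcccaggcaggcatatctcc
Gbp2, chr3:142620413-142620712, plus strand: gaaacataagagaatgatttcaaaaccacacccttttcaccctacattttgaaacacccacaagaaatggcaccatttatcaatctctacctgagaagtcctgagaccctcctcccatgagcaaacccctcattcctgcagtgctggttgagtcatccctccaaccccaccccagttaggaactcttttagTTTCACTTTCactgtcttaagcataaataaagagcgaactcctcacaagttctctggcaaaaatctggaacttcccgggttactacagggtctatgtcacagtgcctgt
In Igtp and Tgtp1 the motifs stand side by side, in Irgm1 2 matches of the second overlap, and in Gbp2 the second reads on the other strand. The first motif was present in 8.3% and the second in 3.44% of all 32851 promoters given there. Counted by gene, of the 10744 tested genes with a promoter there 8.39% held the first and 3.94% the second. Of the 66 genes called lower by 2-fold or more that had a promoter there, 27.3% held the first and 24.2% the second, and of the 94 called higher by 2-fold or more 7.45% and 2.13%. A match describes letters in the window and not binding. The promoter of Tbx21 held neither.

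Cytokine genes fell more often than they rose. Of 23 tested, 9 were called lower (39.1%, beside 8.47% of all genes) and 1 higher (4.35%, beside 7.77%), with a median log2 of -0.6. Lta, lymphotoxin alpha, had 40.3, 35.8, 55.6 and 64.4 CPM against 88.3, 113, 102 and 106 CPM (log2 -1.06 ± 0.12, adjusted p = 1.1e-07), and the 2 male T1792del libraries were the lowest. Lif, leukemia inhibitory factor, had 28.7 to 39.9 CPM against 62.3 to 85.5 CPM (log2 -1.11 ± 0.15, adjusted p = 1.3e-06), and was already lower in naive cells (log2 -0.89, adjusted p = 0.0018). Ltb, lymphotoxin beta, fell by 0.6 (adjusted p = 0.00017).

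Tnf, named with the next 4 genes after their values were seen, had 30.2 to 38.5 CPM against 41.7 to 58.9 CPM (log2 -0.62, adjusted p = 0.0073). Il21, Il4 and Il13 fell by 1.27, 1.92 and 1.53, but from wild-type means of 1.07, 0.711 and 1.24 CPM. Il4 missed the threshold without wild-type 2 (adjusted p = 0.058), Osm (log2 -0.39) without T1792del 4 (adjusted p = 0.052) or wild-type 2 (adjusted p = 0.06), and Il13 without any 1 of T1792del 1, 2 or 4 or wild-type 2 or 3 (adjusted p from 0.071 to 0.11). Tnfsf11, RANK ligand, was the 1 cytokine gene called higher. It had 274, 248, 298 and 286 CPM against 132, 144, 153 and 170 CPM (log2 0.88 ± 0.2, adjusted p = 0.002) and was also higher in naive cells (log2 0.76, adjusted p = 0.029). Il2, the growth factor that activated T cells make, was not called, at 130, 99.3, 139 and 144 CPM against 125, 159, 155 and 183 CPM (log2 -0.28 ± 0.16, adjusted p = 0.24), and its groups overlapped.

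Both chains of the IL-2 receptor described here are in the list of activation surface markers, of which 5 of 25 were called lower (20%, beside 8.47% of all genes) and 2 higher (8.0%, beside 7.77%). Of these markers 3 were called lower without T1792del 1 or 4 or wild-type 4, and 1 was called higher without T1792del 2 or wild-type 1, 2 or 3. The IL-2 receptor chains are given with single genes known to be induced by IL-2 through STAT5, which were put together after their values were seen. The medium held IL-2 for both groups. Il2ra (CD25), the high-affinity chain, had 380, 371, 418 and 380 CPM against 651, 634, 655 and 624 CPM (log2 -0.73 ± 0.1, adjusted p = 1.8e-06). The spread within each group was small beside the gap. Il2rb, the signalling chain, had 139 to 197 CPM against 194 to 243 CPM and overlapped (log2 -0.42, adjusted p = 0.0019).

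Cish and Socs2, feedback inhibitors of cytokine receptors, had 66.3 to 91.4 CPM against 122 to 153 CPM (log2 -0.74, adjusted p = 0.00098) and 8.38 to 12.1 CPM against 14.6 to 21.5 CPM (log2 -0.9, adjusted p = 0.0015). Socs1 had 10.7, 14.1, 20.1 and 14.6 CPM against 28.2, 33.5, 29.3 and 25 CPM (log2 -0.97 ± 0.17, adjusted p = 0.00012), and Socs3 3.69 to 10.8 CPM against 11.2 to 13.4 CPM (log2 -0.88, adjusted p = 0.00031). Both hold 1 miR-19 match and were in the target list, and both were lower. The survival kinases Pim1 and Pim2 fell by 0.59 and 0.81 (adjusted p = 7.1e-05 and 8.6e-09), and Pim2 was chosen after its values were seen. Pim1 was higher in naive T1792del cells (log2 0.53, adjusted p = 0.00096), and the difference between states was -1.12 (adjusted p = 9.5e-06).

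The helper lineage list, which includes Tbx21, Eomes and Il12rb2 described above, held calls in both directions. Of 23 members 8 were called lower (34.8%, beside 8.47% of all genes) and 5 higher (21.7%, beside 7.77%). The number higher was 0 without wild-type 1, 2 without T1792del 2 or wild-type 4, and 3 or 4 without any other library. Maf, a factor of Tfh and Th2 cells, was low in both groups, at 0.107 to 0.727 CPM against 0.975 to 1.13 CPM (log2 -1.35, adjusted p = 0.0023). Cxcr3, a chemokine receptor of Th1 cells, had 0.739 to 1.49 CPM against 1.72 to 2.72 CPM (log2 -0.99, adjusted p = 0.026) and missed the threshold without T1792del 1 (adjusted p = 0.1), T1792del 4 (adjusted p = 0.058) or wild-type 2 (adjusted p = 0.089).

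Of 11 CD4 T cell markers, most of them parts of the T cell receptor complex or its first signalling steps, 3 were called lower (27.3%, beside 8.47% of all genes) and none higher, with a median log2 of -0.18. These were Cd247, Lat and Cd3g (log2 -0.27, adjusted p = 0.032), and Cd3g missed the threshold without any 1 of T1792del 1 or 2 or wild-type 1 or 4 (adjusted p from 0.058 to 0.15). Cd247, the zeta chain, had 106 to 126 CPM against 166 to 177 CPM (log2 -0.57 ± 0.07, adjusted p = 6.1e-07), and Lat, the adaptor that assembles the signal, 260 to 299 CPM against 360 to 390 CPM (log2 -0.4, adjusted p = 0.00018). Of 34 brakes of receptor signalling 7 were called lower (20.6%, beside 8.47% of all genes) and 3 higher (8.82%, near the 7.77% of all genes), and of the 7 lower 4 were the Socs and Cish genes above. Ubash3b, a phosphatase that damps the receptor and holds a miR-19 and a miR-92 match, rose from 47.8 to 57.5 CPM in wild-type to 74.2 to 86 CPM (log2 0.6 ± 0.08, adjusted p = 1.3e-06). Of 17 genes of calcineurin and NFAT, Rcan3 was called higher (5.88%) and 2 were called lower (11.8%), shares near those of all genes. These were Ppp3cc, a catalytic subunit of calcineurin (log2 -0.6, adjusted p = 0.00012), and Fkbp1a, the binding protein of the drug FK506 (log2 -0.35, adjusted p = 0.00027). Of 22 NF-kB genes 4 were called higher (18.2%, beside 7.77% of all genes) and 1 lower (4.55%, beside 8.47%). Among the 4 was the subunit Rel (log2 0.58 ± 0.14, adjusted p = 0.0032).

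Of 18 brakes of PI3K signalling 4 were called higher (22.2%, beside 7.77% of all genes) and 2 lower (11.1%, beside 8.47%), and the number higher was 2 when either T1792del 1 or wild-type 4 was left out. Among the 4 was Phlpp1, a relative of Phlpp2, at 24.1 to 27.8 CPM against 17.5 to 19.5 CPM (log2 0.52 ± 0.1, adjusted p = 0.00062). Of 19 genes of TGF-beta signalling 4 were called higher (21.1%, beside 7.77% of all genes) and 1 lower (5.26%, beside 8.47%). Among the 4 was Tgfbr2, already counted with the published targets. Tgif1, a repressor of SMAD targets, had 64.2 to 72.9 CPM against 44 to 49.5 CPM (log2 0.59 ± 0.09, adjusted p = 2.8e-05), and Tgfbr3, a co-receptor, fell by 0.52 (adjusted p = 0.00056). Of 38 cell cycle genes 2 were called higher (5.26%) and of 23 apoptosis genes 2 (8.7%), near the 7.77% of all genes. In each of these lists 1 was called lower (2.63% and 4.35%, beside 8.47% of all genes). Bcl2, the survival protein, was higher in naive T1792del cells (log2 0.59, adjusted p = 8.7e-06) and not called in stimulated ones (log2 -0.21, adjusted p = 0.073), and the difference between states was -0.8 (adjusted p = 5.4e-05).

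Of 27 genes of sterol and fatty acid synthesis 12 were called higher (44.4%, beside 7.77% of all genes), none lower and 15 not called, with a median log2 of 0.23, and 8 to 14 were called when 1 library was left out, 3 with females alone and 6 with males alone. Srebf1, the master regulator of fatty acid synthesis, had 122, 103, 125 and 104 CPM against 82.3, 79.5, 79.9 and 83.8 CPM (log2 0.48 ± 0.07, adjusted p = 2.6e-06), and the deletion difference was larger than in naive cells (0.55, adjusted p = 0.00033). Acly, which makes cytosolic acetyl-CoA, had 508 to 597 CPM against 372 to 452 CPM (log2 0.42, adjusted p = 0.00028), and Sc5d, of the last steps of cholesterol synthesis, 72.1 to 88.9 CPM against 53.6 to 64.2 CPM (log2 0.46, adjusted p = 0.00017). Scd2, a fatty acid desaturase, had 353, 360, 273 and 179 CPM against 195, 162, 124 and 134 CPM. The male T1792del libraries were the highest, and the groups overlapped (log2 0.92 ± 0.15, adjusted p = 3.4e-05).

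Of 20 glycolysis genes 6 were called higher (30%, beside 7.77% of all genes) and none lower, but most of these calls rested on 1 library. Slc2a3, a glucose transporter, had 43.2, 255, 47.9 and 41.1 CPM against 40.7 to 46.2 CPM, and Bnip3, a mitophagy receptor that hypoxia induces, 18.5, 92.9, 12 and 13.2 CPM against 13.3 to 15.3 CPM. T1792del 2 alone was high. Without it 2 of the 20 were called, 10 were called without T1792del 4, and Slc2a3 and Bnip3 stood at log2 values of 0.04 and 0.03. Slc16a3, a lactate exporter, kept a smaller difference without T1792del 2 (log2 0.49 ± 0.12, adjusted p = 0.0042, against 1.12 with it) and lay above wild-type in all 4 libraries, at 47.3 to 51.5 CPM in the other 3 against 34.1 to 36.4 CPM. Pgam1, a glycolytic enzyme, did likewise (0.23, adjusted p = 0.024, against 0.3). Among the 15 largest increases P4ha2, a collagen hydroxylase that hypoxia induces, missed the threshold without T1792del 2 (log2 0.56, adjusted p = 0.1, against 1.98), and Aldoc, an aldolase, and Ppp1r3b, a glycogen-targeting subunit, fell to 0.77 and 0.65 from 1.71 and 1.68 but passed.

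**Figure D4:**
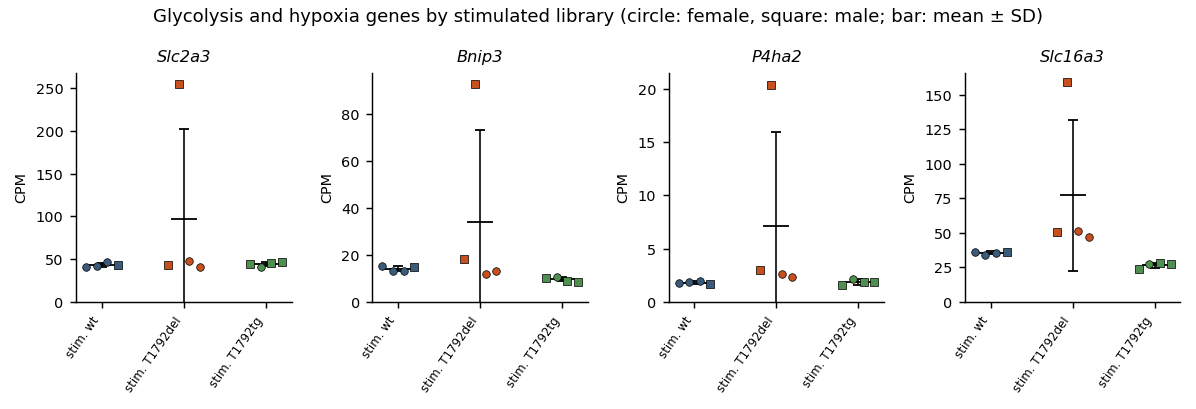
CPM (linear axis from 0) of 4 genes in stimulated wild-type, T1792del and T1792tg libraries, 1 point per library (circles from females, squares from males), with the group mean and SD, cut at 0. The single high T1792del point in each panel is T1792del 2, at 255 CPM for Slc2a3, while the other 3 lie between 41.1 and 47.9 CPM beside wild-type at 40.7 to 46.2 CPM.

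Other large increases were still called without that library. Akr1c18, a steroid dehydrogenase that inactivates progesterone, had 26, 22, 34.7 and 41.3 CPM against 10.2 to 13.1 CPM (log2 1.38 ± 0.22, adjusted p = 4.1e-05), was higher in naive cells too (log2 2.29, adjusted p = 0.0011) and lower in stimulated T1792tg (log2 -2.79, adjusted p = 5.8e-09). Synj2, an inositol phosphatase, had 15.8 to 24 CPM against 7.45 to 8.9 CPM (log2 1.25 ± 0.22, adjusted p = 0.00014), and likewise in naive cells (log2 1.7). Ahnak, a large scaffold protein, had 22.9 to 48.4 CPM against 10 to 15.1 CPM (log2 1.21, adjusted p = 1.8e-05) and was higher in T1792tg too (log2 1.26, adjusted p = 1.1e-05). T1792del 2 was its highest library, and without T1792del 2 its log2 was 0.89 (adjusted p = 0.00017). Fads2, a fatty acid desaturase, rose from 2.48 to 7.52 CPM in wild-type to 12.2 to 21.2 CPM (log2 1.68 ± 0.37, adjusted p = 0.0018).

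**Figure D5:**
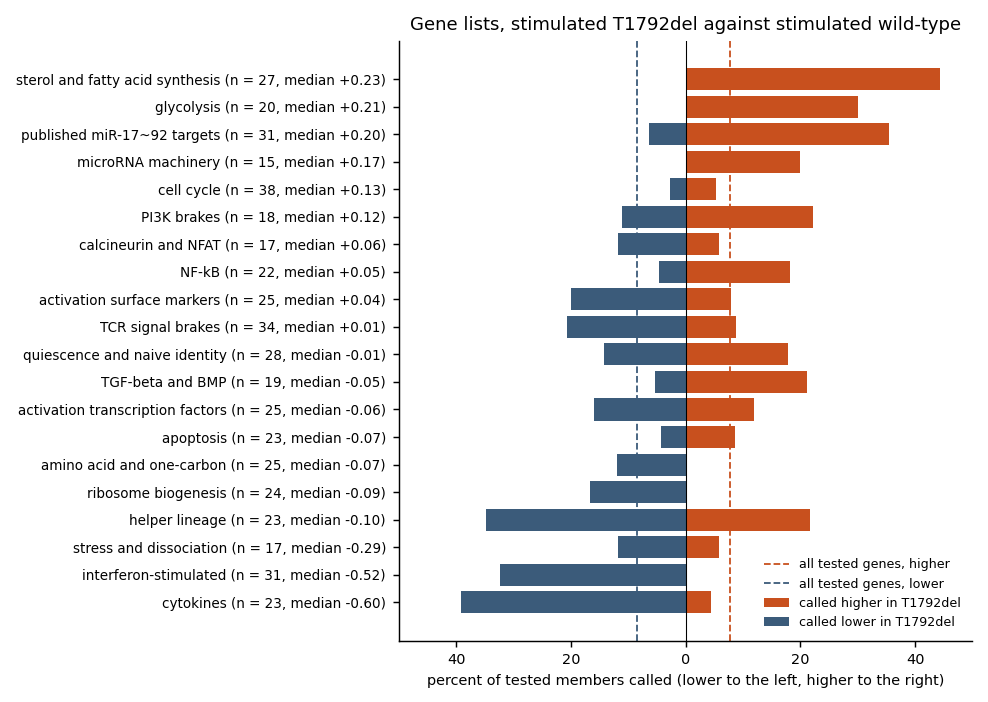
Share of tested members of 20 gene lists called higher (right) or lower (left) in stimulated T1792del, sorted by the median log2 difference given beside each name. Dashed lines give the shares over all tested genes, 7.77% higher and 8.47% lower. Cytokine and interferon-stimulated genes lie lowest and sterol and fatty acid synthesis highest.

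Cell type markers were read for the whole of each list as the summed CPM of its members. The 11 CD4 T cell markers summed to 3900 to 4230 CPM in T1792del and 3910 to 4540 CPM in wild-type. B cell markers summed to 38 to 129 against 42.7 to 104, myeloid markers to 39 to 52.7 against 43.8 to 55.5, NK and CD8 markers to 28.5 to 45.6 against 39.5 to 53.6 and memory markers to 517 to 642 against 595 to 689 CPM, and no list had a member at 0 in every library of a group. T1792del 1 and 3 lay below every wild-type library in the NK and CD8 sum and T1792del 1, 2 and 4 in the memory sum, and the part of such cells in the lower Th1 genes was not tested. Eomes, described above as lower, is a member of both lists, and Il2rb and Cxcr3, also lower, of the memory list. These sums are therefore not independent of the genes described. Regulatory T cell markers summed to 918 to 1000 CPM against 1190 to 1250 CPM without overlap. Il2ra, itself lower as described above, gave 371 to 418 CPM of the sum in T1792del and 624 to 655 CPM in wild-type. The sum without Il2ra was not taken, so the gap cannot be read as a fall of the other members. Of 14 members 3 were called lower (21.4%, beside 8.47% of all genes), namely Il2ra, Lrrc32 and Gpr83, and none higher. Foxp3, the defining factor, had 7.46 to 11 CPM against 8.23 to 10.3 CPM (log2 -0.01, adjusted p = 0.98). Red cell markers summed to 88.6 and 57.4 CPM in the male T1792del libraries, 12.2 and 11.7 in the female ones and 4.99 to 6.9 in wild-type.

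In naive libraries markers of other cell types also differed between the groups. Myeloid markers summed to 357 to 519 CPM in naive T1792del and 237 to 317 CPM in naive wild-type without overlap, with 7 of 18 called higher (38.9%, beside 2.76% of all genes) and a median log2 of 0.56. In the difference between states their median was -0.63, and 1 was called downward. Red cell markers summed to 1180 to 5080 CPM against 314 to 953 CPM, also without overlap, NK and CD8 markers to 134 to 197 against 129 to 138 CPM and B cell markers to 154 to 658 against 208 to 430 CPM. The part of such cells in the naive values and in the differences between states given above was not tested. In stimulated T1792tg, where Ifng, Eomes and Il12rb2 were higher, memory markers summed to 979 to 1050 CPM and NK and CD8 markers to 64.8 to 85.7 CPM, above every stimulated wild-type library, and their part in those values was not tested. Eomes is a member of both of these lists.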

How the data were processed

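Per the labels' protocols, RNA of each culture was made into stranded polyA libraries and read as single ends. Per the submitters' processing notes, the tools were edgeR 3.24.3, R 3.5, STAR 2.5.2a and FastQC 0.11.5, and the build mm10. Neither label nor header names the counting tool or the annotation. The authors deposited whole-number read counts per Entrez gene, not normalized. A further column, a length per gene, was not used.

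Symbols came from RefSeq (GRCm38.p6, the same build), which matched 23968 of 24028 identifiers. The others held 0.0749% of the counts. Genes were kept by filterByExpr over 10 groups (13650 genes). Library sizes were corrected by TMM and the counts fitted over all 38 libraries with a coefficient per group (edgeR 4.0.16, R 4.3.3, quasi-likelihood F test, two-sided). Standard errors are the log2 value over the square root of F. CPM uses the scaled sizes, and floors are 3 counts per pooled group, which cover counting error only. Seed matches were sought in the longest 3′ UTR of GENCODE M21 transcripts. The test was checked on simulated counts.

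Named genes were the locus, the 15 largest increases and decreases (at least 5 CPM, no overlap), up to 5 members per list by smallest p, the 8 higher genes with the most matches and the 6 smallest p of each direction in the difference between states. Genes outside this rule were picked with their values in view. The comparison, lists and rule were chosen with earlier results of these data known. Alternatives were DESeq2 size factors, DESeq2 1.42.0, other filters, the compared groups alone, a replicate block, a term for sex, female libraries, each library left out and, added after seeing the data, male libraries and the test between sexes. Replicate numbers did not pair the genotypes (correlations of deviations -0.223 to 0.0499) but paired naive with stimulated libraries of a genotype (0.122 to 0.342).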

Additional observations from a re-analysis of the deposited data

Results flagged for a closer look

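In 6 genes of glycolysis and hypoxia the highest T1792del library stood far from the other 3. This was T1792del 2 each time, with 255 CPM for Slc2a3, 159 CPM for Slc16a3, 92.9 CPM for Bnip3, 20.4 CPM for P4ha2, 14.7 CPM for Aldoc and 22.3 CPM for Ppp1r3b. The same library was highest for Ahnak (48.4 CPM), Tnfaip3 (105 CPM) and Il21 (0.675 CPM). In wild-type a single library stood apart for E2f1 (lowest, 84.3 CPM), Ago3 (lowest, 7.83 CPM), Aldoc (lowest, 1.44 CPM), Irgm1 (highest, 359 CPM), Il21 (highest, 1.36 CPM) and Lat (highest, 390 CPM). Chance alone would mark about 1 in 20 groups in this way. Many genes were examined in both stimulated groups, so part of these flags can be chance.

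The log2 difference between T1792del and wild-type was not the same in stimulated as in naive cells for a number of the genes described. This was tested in edgeR's quasi-likelihood fit, which did not join naive with stimulated libraries of the same number. With a block joining them, 40 of the genes given here were still called and 2 were not. Values are the stimulated minus the naive difference. Among the genes described above with their seed matches they were 0.38 for Tgfbr2, 0.56 for E2f1, 1.43 for Rora, -0.84 for Socs1, 0.66 for Ago1, 0.37 for Cc2d1a, 0.67 for Map3k2, 0.48 for Klhl20, 0.73 for Clock and 0.37 for Ubash3b. Hbp1 (0.85), Cnot1 (0.48), Phlpp1 (0.8) and Mir17hg (2.98) hold no match or have no UTR in the annotation.

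For Th1 and interferon genes the difference was -2.34 for Tbx21, -2.43 for Tbkbp1, -2.44 for Ifng, -1.5 for Eomes, -1.52 for Il12rb2, -2.22 for Iigp1, -1.53 for Irgm1, -1.26 for Igtp, -1.35 for Gbp2, -1.44 for Tgtp1, -1.34 for Tgtp2, -1.72 for Irf8, -2.23 for Ly6a, -2.45 for Ly6c1 and -3.39 for Ube2l6. In cytokine and signalling genes it was -0.94 for Lta, -0.58 for Ltb, -0.54 for Osm, -1.27 for Maf, -1.12 for Pim1, -0.6 for Pim2, -0.37 for Cd247, -0.34 for Fkbp1a and -0.8 for Bcl2. Metabolic genes gave 0.55 for Srebf1, 1.33 for Scd2, 1.96 for P4ha2 and 1.89 for Ppp1r3b.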

How the results depend on the processing

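The stimulated comparison called 601 genes with female libraries alone and 425 with males alone, and 1388 (without T1792del 1) to 2278 (without T1792del 4) when 1 library was left out. The naive one called 357, 117 and 439 (without naive T1792del 3) to 786, and 469 without naive wild-type 3. The difference between states called 123, 30 and 443 (without stimulated T1792del 1) to 1007, and 467 without naive wild-type 3. The T1792tg comparison called 159, 234 and 962 (without T1792tg 4) to 1710, and 2631 when only the compared groups were fitted. These subsets hold fewer libraries. Under the other alternatives these counts stayed within 1.5 times. With the replicate block the stimulated count was 2163, and with the block joining naive and stimulated libraries the difference between states was called for 727 genes. DESeq2 called 2568 genes, of which 2183 were also called by edgeR.

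The median log2 by seed class was 0.106 for genes with any match and -0.017 without one when only 8-base matches counted, with 0.142 for miR-17, 0.086 for miR-18 and 0.128 for miR-92. With only the compared groups fitted it was 0.089 with any match, -0.008 without one, and 0.115, 0.08, 0.093 and 0.118 for miR-17, miR-18, miR-19 and miR-92. With no filter on low counts it was 0.018, 0.0 (no longer below 0), and 0.05, 0.006, 0.022 and 0.042. In females it was 0.033 with any match, 0.033 for miR-19 and 0.056 for miR-92, and in males -0.016 without a match, 0.091 for miR-19 and 0.113 for miR-92. The cause of these shifts was not tested.

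Of 83 called genes among those named, 83 were called with DESeq2, with its size factors and with the replicate block, 81 with a term for sex, 56 in females and 46 in males, and 75 to 83 when 1 library was left out. Bnip3 had a log2 of -0.15 in females. Foxp3, near 0, changed sign, at 0.01 with the filter at 5 CPM and with the sex term, 0.02 with only the compared groups, 0.11 in females and -0.1 to 0.08 when 1 library was left out. With 4 libraries a group, genes near 1 CPM and changes well under 1.5-fold are at the limit of what these data resolve.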

Other observations

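Rpl29, a ribosomal protein gene, was among the 15 largest decreases but split the T1792del libraries. It had 93.3, 2.17, 102 and 2.69 CPM in stimulated T1792del 1 to 4 and 225 to 252 CPM in wild-type (log2 -2.26, adjusted p = 0.027), and 80.3, 1.56, 89.9 and 1.83 CPM in naive T1792del 1 to 4 against 125 to 180 CPM. The same numbers were low in both states. Its call was lost without T1792del 2 (adjusted p = 0.073) or T1792del 4 (adjusted p = 0.063). Ribosomal protein genes have near-identical processed copies, so this count can be uncertain, but the part of such copies in it was not tested. The cause of the split between the T1792del libraries was not tested.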
